A study of Mus musculus with 16 samples.

Results

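Replication-type histone genes were followed in poly-A RNA of mouse embryonic stem (ES) cells and embryoid bodies. They are the 65 of 27807 genes in the deposited table whose name begins with Hist1h, Hist2h, Hist3h or Hist4h. By name, 54 of these belong to Hist1 on chromosome 13, 7 to Hist2 on chromosome 3, 3 to Hist3 on chromosome 11 and 1, Hist4h4, lies on chromosome 6. Hist1h2al, at chr13:51298057-51298434, lies far from the other Hist1 genes. By the protein named, 6 are H1, 16 are H2A, 19 are H2B, 11 are H3 and 13 are H4 genes. The annotation lists 62 of them as protein-coding and 3 (Hist1h2aj, Hist2h3c2 and Hist3h2bb-ps) as pseudogenes.

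The 16 libraries fell into 8 groups of 2. They were made from ES cells and from embryoid bodies at EB4, before any retinoic acid, at EB5, a day into the treatment, and at EB8, towards its end, in a protocol that leads to neurons. Cells were labelled Taf4+/+ (WT) or Taf4-/- (KO), the latter from lines homozygous for a null allele of Taf4a, a subunit of the general transcription factor TFIID. The ES cells had been grown on inactivated mouse embryonic fibroblast feeders, and the study used 2 independent lines of each genotype.

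Replication-dependent histone genes supply the core histones H2A, H2B, H3 and H4, which form the nucleosome, and the linker histone H1, which binds the DNA between nucleosomes. Their mRNAs are made mainly in S phase and are the only metazoan mRNAs that normally end without a poly-A tail. The transcript is instead cut just after a short conserved stem-loop, which is bound by the stem-loop binding protein Slbp. Some members also make polyadenylated transcripts that run past the stem-loop to a downstream signal, above all in cells that leave the cell cycle. A library selected on poly-A tails therefore holds the polyadenylated part of these transcripts and whatever tail-less RNA passed the selection.

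The stem-loop is shown first, because it is the element that sets these genes apart from other mRNAs. It was searched as a perfectly paired stem of 6 bases that opens with GG, around a loop of 4 bases that starts with TT, within 200 bases after the coding sequence. It was found in 54 of the 62 members with an annotated coding sequence. There were 6 forms (sense strand, build mm9, stem in capitals), given here with a member that carries each.
32 members, in Hist1h1c at chr13:23831381-23831396: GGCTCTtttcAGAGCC
9 members, among them Hist1h3c: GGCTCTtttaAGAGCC
8 members, among them Hist1h4d: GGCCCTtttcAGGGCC
Hist1h4i and Hist2h4, chr13:22132835-22132850 in Hist1h4i: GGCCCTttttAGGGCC
Hist1h4b and Hist1h4j: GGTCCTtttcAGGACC
Hist2h2ac: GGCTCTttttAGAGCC
The first form was shared by members of the H1, H2A, H2B and H3 classes, among them Hist1h2bc, Hist3h2ba and Hist3h2a. The forms that open with GGCCCT or GGTCCT were held by H4 genes. These letters were not found in the window of Hist2h2be, Hist1h3g, Hist1h4a, Hist1h2al, Hist1h2bp, Hist1h2an, Hist2h2bb or Hist1h2bq.

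The members with the highest level were those whose annotated transcripts run past the stem-loop. Levels are compared between genes as the mean normalised read count of the 16 libraries per kilobase (kb) of exon. This level was 208 for Hist1h4i, 181 for Hist3h2ba, 173 for Hist1h2bc, 141 for Hist1h1c and 45.5 for Hist3h2a. Their annotated exons reach 150, 166, 272, 839 and 1487 bases past the stem-loop, in the same order. Over all members, a long annotated end did not go with a high level. The 18 members whose annotation reaches at least 100 bases past it had a median of 6.61 per kb (range 0.178 to 208), and the other 36 a median of 9.23 (range 0.171 to 36.8). The poly-A signal AATAAA stood in the last 50 annotated bases of 11 members, among them Hist3h2ba, Hist1h2bc, Hist1h1c and Hist2h2be, and not in those of Hist1h4i or Hist3h2a.

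**Figure D1:**
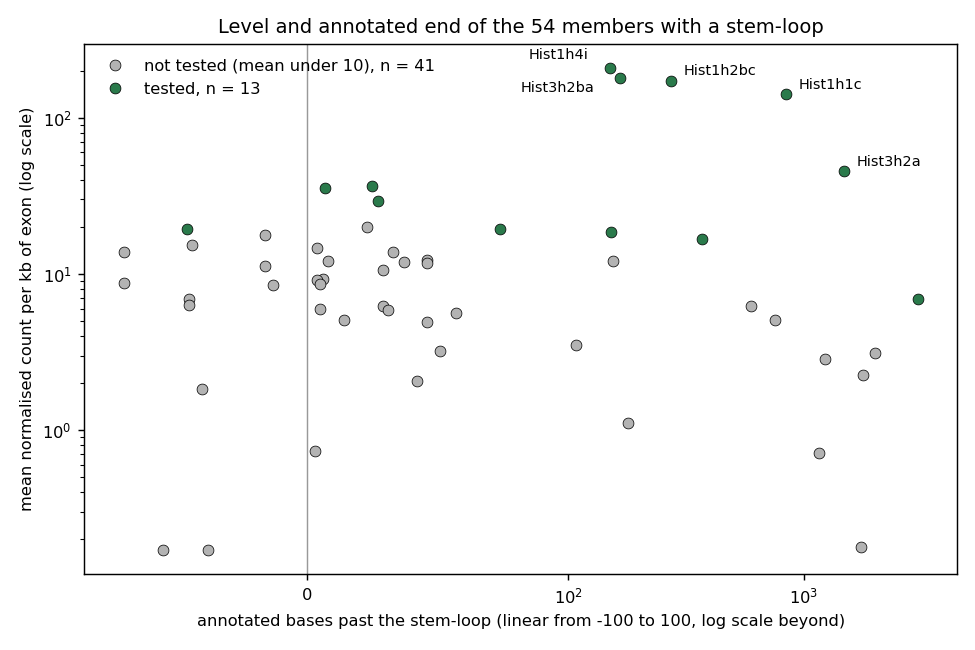
Mean normalised read count per kb of exon (log scale) against the annotated bases past the stem-loop, for the 54 members in which it was found. Each point is a gene. The 5 named genes, at 45.5 to 208 per kb, all have annotated ends at least 150 bases past the stem-loop. Many genes with long annotated ends have low levels per kb, which their exon length itself lowers.

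Histone genes are near-copies of each other, which bears on how reads can be assigned. Reads were 54 bases long. In the annotation, a median of 43.0% of the 54-base windows of a member also occurred in another of the 70 annotated histone cluster genes. At least 50% of the windows were shared in 24 members, none of which was abundant enough to be tested, and the highest shares were those of Hist1h2bq and Hist1h2br (97.7%). Among the 14 tested members the share ran from 0% (Hist1h1a, Hist1h1b and Hist2h2be) to 46.4% (Hist1h2bc). It was 38.8% in Hist1h4i, 20.6% in Hist3h2ba, 8.03% in Hist1h1c and 1.96% in Hist3h2a. How reads with several matches were counted is not given in the sources used here, so counts of members with many shared windows are uncertain. Hist3h2a also overlaps Trim17, and strand cannot separate the reads of that pair if counting ignored it.

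Promoters of 57 members were matched to RefSeq (build GRCm38.p6), in windows from 250 bases before to 50 after the annotated start, and motifs were searched on both strands. The TATA box, which the TATA-binding protein of TFIID recognises, was searched as TATAAA or TATAAG. These letters, on either strand and anywhere in the window, were found in 77.19% of the members against 19.36% of 27025 promoters. Not all are placed as a TATA box would be: in Hist1h4f they begin 250 bases before the start. CCAAT was found in 84.21% against 37.92%, but in 3 of the 12 H4 promoters. ATTTGCAT, the octamer bound by POU factors, was found in 22.81% against 1.75%, in 7 of 14 H2A and 6 of 16 H2B promoters and in no H1, H3 or H4 promoter. No motif contains another. The last 80 bases before the start are printed for the matched genes among the 5 of highest level per kb, with these motifs in capitals. Hist1h2bc had no match.
Hist1h4i, chr13:22041363-22041442, minus strand: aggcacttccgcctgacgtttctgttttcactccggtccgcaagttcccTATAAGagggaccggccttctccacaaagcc
Hist3h2ba, chr11:58948831-58948910, plus strand: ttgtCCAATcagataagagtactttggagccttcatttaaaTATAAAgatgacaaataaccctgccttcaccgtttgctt
Hist1h1c, chr13:23738727-23738806, plus strand: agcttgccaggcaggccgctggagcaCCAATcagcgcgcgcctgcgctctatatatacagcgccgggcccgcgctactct
Hist3h2a, chr11:58954605-58954684, plus strand: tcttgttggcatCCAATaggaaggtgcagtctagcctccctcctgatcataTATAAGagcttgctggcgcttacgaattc
The searched TATA letters begin 31, 39 and 29 bases before the start of Hist1h4i, Hist3h2ba and Hist3h2a. The window of Hist1h1c holds neither TATAAA nor TATAAG. Its printed bases hold tatatata, which the search did not cover.

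The genes made up little of each library. Depth was 22442118 to 40711826 reads in genes per library, and the ES libraries were all deeper than those of embryoid bodies, and the part of depth in ES against EB4 was not tested. The targeted gene was not lower by count: Taf4a had 1591 to 1960 normalised read counts in the libraries labelled WT and 1973 to 2400 in those labelled KO. Counts over the whole gene do not show the deleted exons, so they do not check the labels. The pluripotency markers Pou5f1, Nanog, Zfp42, Klf4 and Esrrb summed to 48225 to 79021 normalised counts at ES. At EB8 they summed to 1225 and 1274 in WT and to 18155 and 19788 in KO. The neuronal markers Tubb3, Dcx and Elavl3 summed to 12356 and 15956 in WT and to 444 and 936 in KO at EB8. At that stage the neural progenitor markers Pax6, Nes, Hes5 and Foxb1 summed to 14493 and 19115 in WT and to 3681 and 3684 in KO, and the 5 endoderm markers (Sox17 and others) to 1195 and 1263 in WT and to 572 and 628 in KO. The 5 germ cell markers (Ddx4, Dazl, Sycp3, Stra8 and Prm1) summed to 5033 and 8082 in WT EB8 and to 20893 and 31412 in KO EB8, against 768 to 1544 at EB4. This rise of the sum was not shared by the list. From EB4 to EB8 in WT, 1 of the 4 tested was higher and 2 were lower (limma adjusted p under 0.05, median log2 change -0.733). In KO 1 was higher and none lower (median 1.591). In KO against WT at EB8, 2 of the 4 were higher and none lower, with log2 changes of 1.968 to 3.33. The 7 fibroblast markers (Col1a1 and others) summed to 1033 and 2650 in WT ES and to 209 and 494 in KO ES libraries, and the part of these cell types in the results was not tested. In bulk RNA, fewer cells of a type and less RNA per cell cannot be told apart.

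All 65 members together took 16889 reads over the 16 libraries. The 6 most abundant, Hist1h1c, Hist1h2bc, Hist3h2ba, Hist1h4i, Hist3h2a and Hist2h2be, held 68.1% of these. The 14 members whose mean reached 10 normalised counts were tested and held 81.7%. The lowest of them was Hist1h3c at 12.3, and the highest left out was Hist1h2bj at 9.31. Another 6 members (Hist3h2bb-ps, Hist1h4m, Hist1h2br, Hist1h2ba, Hist1h2aa and Hist1h2bq) never had more than 3 reads in a library. Of the untested genes, 3 are known from the testis: Hist1h2aa and Hist1h2ba reached at most 1 read and Hist1h1t at most 4.

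The summed level of all members, in RPM (reads scaled to the same total of reads in genes), was 22.2 and 23.2 for replicates 1 and 2 of WT at ES. It was 54.1 and 33.1 at WT EB4, 33.5 and 20.8 at WT EB5 and 64.6 and 47.6 at WT EB8. In KO they were 29.5 and 27.2 at ES, 39.5 and 18.0 at EB4, 38.4 and 30.4 at EB5 and 98.0 and 53.6 at EB8. The lowest value, in KO EB4 replicate 2, rested on 406 reads (Wilson 95% interval 16.3 to 19.8 RPM) and the highest, in KO EB8 replicate 1, on 2224 (94.0 to 102 RPM). Such intervals cover counting error only. The sum was higher at EB8 than at ES in both genotypes in all libraries. Between genotypes the KO over WT ratio of the means was 1.25 ± 0.08 at ES, 0.66 ± 0.42 at EB4, 1.27 ± 0.47 at EB5 and 1.35 ± 0.63 at EB8 (SD of the ratio, n = 2 each). The EB8 ratio rested on Hist1h1c, without which it was 0.96, and it was 0.96 also without KO EB8 replicate 1, so that its direction turned in both cases. The EB4 ratio was 0.41 without KO EB4 replicate 1 and 0.91 without KO EB4 replicate 2.

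A set of 3 libraries stood apart in the members of low level. Replicate 1 of WT at EB4, EB5 and EB8 held 12.5, 8.63 and 22.1 RPM from the 51 untested members, against 4.31, 4.30 and 4.10 in replicate 2. The other libraries held 2.83 to 7.30, apart from KO EB8 replicate 1 with 11.1. Of the 51 untested members, replicate 1 was higher than replicate 2 in 42 at WT EB4, in 32 at WT EB5 and in 41 at WT EB8.

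The same 3 libraries were rich in several RNAs that have no poly-A tail. RNase_MRP, the RNA of a ribonuclease that processes ribosomal RNA, had 243, 219 and 651 normalised counts there, against 0 to 61.4 in the other 13 libraries. RNaseP_nuc, the RNA of the enzyme that trims tRNA ends, had 34.0, 15.1 and 92.4 against at most 2.20. The rows named 7SK, an RNA that holds back the elongation factor P-TEFb, summed to 246, 188 and 876 against 73.7 to 165. Scarna2, a guide RNA of Cajal bodies, did not set all 3 apart, with 8.77, 12.2 and 58.8 against 0 to 11.7. These RNAs were picked after the values had been seen, and their part in the histone values was not tested. Results below are therefore also given without these 3 libraries where the call changes.

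**Figure D2:**
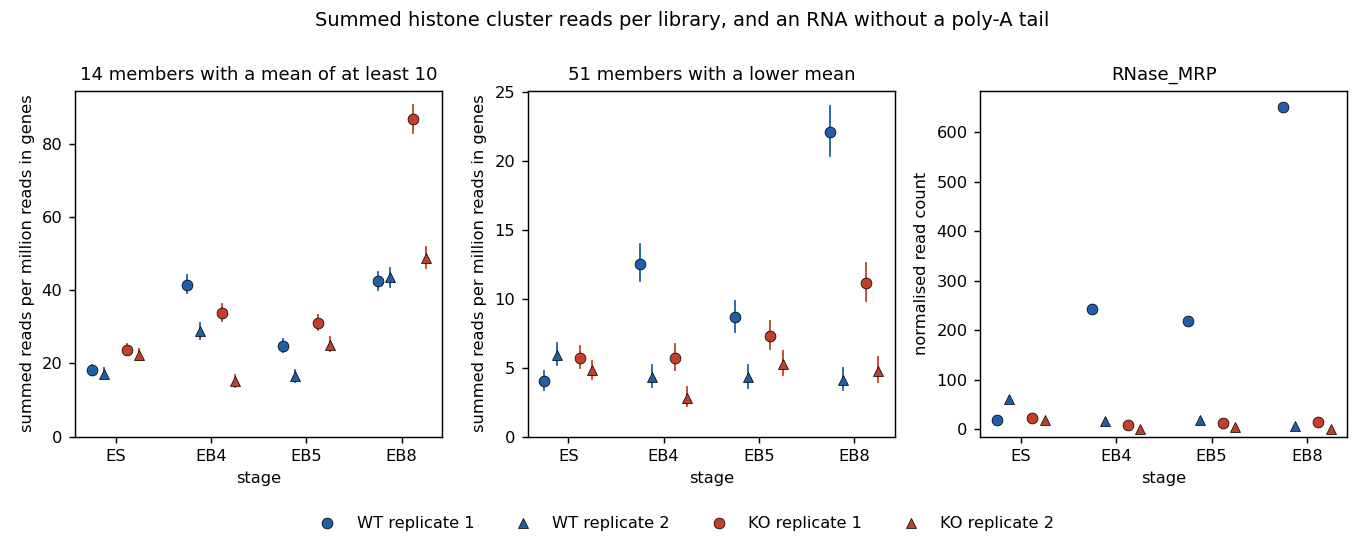
Summed RPM of the 14 tested members (left) and the 51 untested members (middle), with Wilson 95% intervals as bars, and the normalised read count of RNase_MRP (right), by stage. Each point is a library. Replicate 1 of WT stands above the other WT libraries in the middle panel (12.5, 8.63 and 22.1 at EB4, EB5 and EB8) and in the right panel.

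Several tested members showed the same split. Hist1h1a, Hist1h1b, Hist1h1d and Hist1h1e encode linker histones. Hist1h1e had 4.6 and 8.0 counts in WT at ES, 62.5 and 10.7 at EB4, 40.5 and 8.8 at EB5 and 143 and 13.8 at EB8. In KO it had 1.7 and 2.1 at ES, 9.3 and 3.8 at EB4, 8.5 and 8.7 at EB5 and 17.9 and 9.6 at EB8. The 3 highest values were those of the 3 WT libraries.

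Hist1h1a had 10.9 and 38.3 counts in WT at ES, 71.2 and 5.4 at EB4, 39.5 and 8.8 at EB5 and 74.6 and 2.1 at EB8. Its KO values were 10.8 and 22.9 at ES, 12.9 and 10.2 at EB4, 15.2 and 31.0 at EB5 and 40.1 and 28.8 at EB8. Within WT EB8, the lowest and the highest of its 16 values thus stood side by side. Hist1h1b ran from 0 in WT EB8 replicate 2 to 87.2 in WT EB8 replicate 1, and Hist1h1d from 2.6 in KO EB4 replicate 2 to 102 in WT EB8 replicate 1.

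Hist1h4d, a core H4 gene, had 10.9 and 13.6 counts in WT at ES, 32.9 and 7.5 at EB4, 14.1 and 7.7 at EB5 and 67.2 and 3.2 at EB8. In KO it had 5.0 and 6.4 at ES, 11.7 and 3.8 at EB4, 17.1 and 11.6 at EB5 and 18.99 and 0 at EB8. Hist1h3e ran from 1.1 to 44.1, Hist1h2ae from 2.6 to 31.7 and Hist1h3c from 1.9 to 28.0. The highest value of Hist1h2ae was in KO EB8 replicate 1 and that of Hist1h3c in KO EB4 replicate 1, not in the WT libraries set apart. With all libraries in the fit, none of these 8 genes passed the test in any comparison. Without the 3 WT libraries, which leaves 1 WT library at EB8, Hist1h1a (log2 change 3.49, limma adjusted p 0.0270) and Hist1h1b (3.57, 0.0158) were higher in KO at EB8. The untested Hist1h2bj, an H2B gene with a level of 20.1 per kb, had 6.4, 15.9, 6.6, 3.2, 1.9, 6.6, 11.6 and 4.2 counts in the WT libraries and 10.0, 7.9, 7.0, 7.7, 13.3, 9.7, 18.99 and 18.1 in the KO libraries, each from ES replicate 1 to EB8 replicate 2. Its 2 highest values were the KO EB8 libraries.

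**Figure D3:**
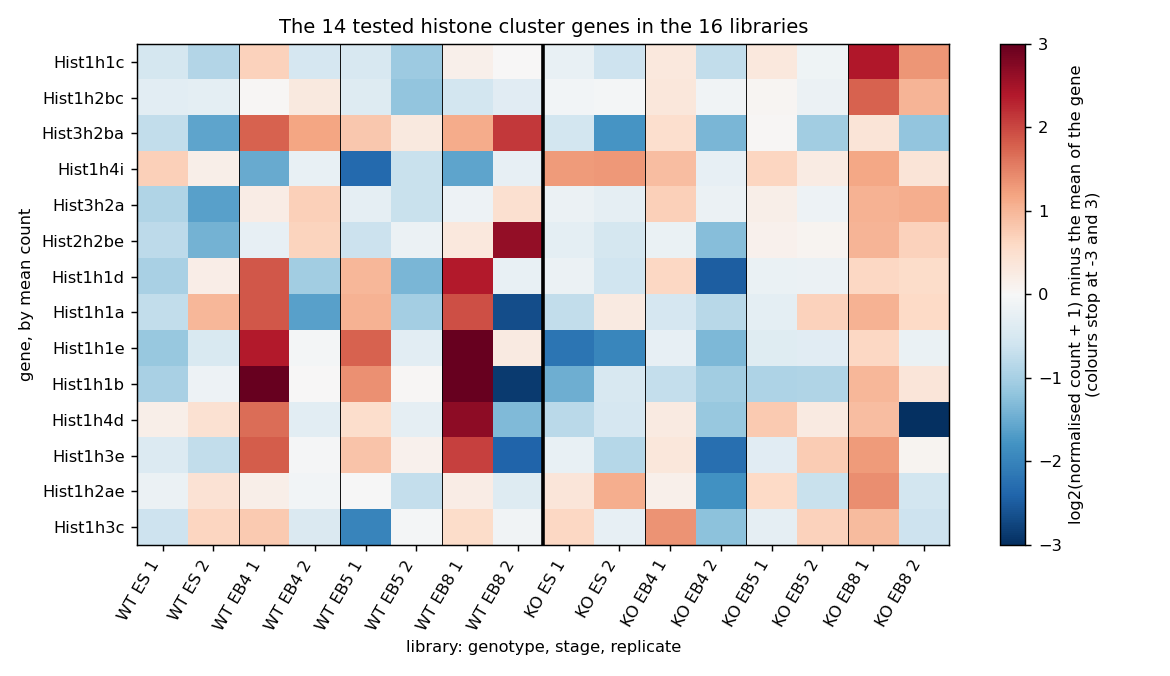
The 14 tested members (rows, by mean count) in the 16 libraries (columns). Colour is log2(normalised count + 1) minus the mean of the gene, and colours stop at -3 and 3. Hist1h1c and Hist1h2bc are highest in the KO EB8 libraries, while Hist1h1a, Hist1h1b, Hist1h1d and Hist1h1e are high in replicate 1 of WT at EB4, EB5 and EB8.

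The comparison of KO with WT within a stage asks which histone genes differ when Taf4a is inactivated. At EB8, 2 of the 14 tested members were higher in KO and none was lower, against 10.4% of all genes higher and 12.5% lower (limma on log2(normalised count + 1), Benjamini-Hochberg adjusted p under 0.05 over 16124 genes). The 2 were Hist1h1c and Hist1h2bc. The median log2 change of the 14 was 0.41, against -0.03 over all genes tested.

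Hist1h1c (ENSMUSG00000036181, chr13:23830676-23832235, mm9) encodes a linker histone that is widely used in differentiated tissues. It had 121 and 94.1 normalised counts in WT at ES, 283 and 123 at EB4, 126 and 81.3 at EB5 and 193 and 176 at EB8. Its KO values were 149 and 114 at ES, 218 and 105 at EB4, 218 and 160 at EB5 and 926 and 440 at EB8. Both KO EB8 libraries thus lay above all others. At EB8 the log2 change in KO against WT was 1.79 ± 0.49 (SE, n = 2 each), limma adjusted p 0.0197. The call was lost without WT EB8 replicate 1 (adjusted p 0.0685), WT EB8 replicate 2 (0.0965) or KO EB8 replicate 1 (0.168, log2 change 1.25). It was also lost without the 3 WT libraries set apart above (0.0592).

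Hist1h2bc (ENSMUSG00000018102, chr13:23776068-23784357, 2 exons) encodes a core H2B. It had 91.0 and 92.5 counts in WT at ES, 115 and 138 at EB4, 85.6 and 49.4 at EB5 and 76.7 and 88.9 at EB8. In KO it had 106 and 109 at ES, 143 and 106 at EB4, 119 and 99.9 at EB5 and 387 and 230 at EB8. As for Hist1h1c, the KO EB8 libraries were the 2 highest. Both KO libraries also lay above both WT libraries at ES and at EB5, while at EB4 they overlapped. Groups of 2 libraries can lie apart without a change, and the share of all genes that do was not counted. The log2 change at EB8 was 1.84 ± 0.36 (SE, n = 2 each), limma adjusted p 0.00351. It stayed past the threshold in all 16 alternatives, with adjusted p from 4.26e-06 to 0.042, and without the 3 WT libraries it was 1.74 (0.0286). Its call is made on a gene of which 46.4% of the windows are shared.

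Hist1h4i and Hist3h2ba stood on opposite sides. Hist1h4i (ENSMUSG00000060639, chr13:22132685-22133221) encodes a core H4. It had 148 and 102 counts in WT at ES, 30.7 and 76.1 at EB4, 16.9 and 56.0 at EB5 and 29.4 and 75.2 at EB8. Its KO values were 219 and 222 at ES, 171 and 75.3 at EB4, 140 and 107 at EB5 and 203 and 117 at EB8. KO lay above WT in both libraries at ES, EB5 and EB8 and overlapped with it at EB4. As said for Hist1h2bc, groups of 2 libraries can lie apart without a change. The lowest values of Hist1h4i, 30.7, 16.9 and 29.4, were those of WT replicate 1 at EB4, EB5 and EB8, the libraries set apart above. Their part in these changes was not tested. The log2 changes were 0.84 ± 0.65 at ES, 1.21 ± 0.65 at EB4, 1.95 ± 0.65 at EB5 and 1.69 ± 0.65 at EB8 (SE), with limma adjusted p of 0.113 at EB5 and 0.0822 at EB8, so none passed.

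Hist3h2ba (ENSMUSG00000056895, chr11:58762413-58763032) encodes an H2B of the small Hist3 cluster. It had 48.2 and 26.3 counts in WT at ES, 278 and 186 at EB4, 142 and 99.9 at EB5 and 175 and 355 at EB8. In KO it had 54.8 and 22.9 at ES, 114 and 30.6 at EB4, 83.4 and 38.8 at EB5 and 106 and 35.2 at EB8. Each KO embryoid body library lay below both WT libraries of its stage, and the ES libraries overlapped. The same limit of 2 libraries a group holds here. The log2 changes were -1.92 ± 0.73 at EB4, -1.05 ± 0.73 at EB5 and -2.01 ± 0.73 at EB8 (SE), with limma adjusted p of 0.137 at EB4 and 0.0642 at EB8. DESeq2 on recovered reads placed Hist1h4i (adjusted p 0.0496) and Hist3h2ba (0.0321) past the threshold at EB8. That method also called more of all genes than limma at EB4 (2077 against 986) and EB5 (1719 against 700). Hist3h2ba also passed in limma with a replicate block (0.0225), although replicate numbers do not pair libraries in every group. Without KO EB8 replicate 1 its log2 change was -2.79.

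No member passed in limma at ES, EB4 or EB5. Over all genes, 0% were called at ES in either direction, 2.75% higher and 3.37% lower at EB4, and 2.17% higher and 2.17% lower at EB5. At an unadjusted p under 0.05 there was 1 member at each of the 3 stages (Hist3h2a at ES, Hist3h2ba at EB4 and Hist1h4i at EB5), and neither edgeR nor DESeq2 called any. The median log2 change of the 14 was 0.10 at ES, -0.91 at EB4 and 0.37 at EB5. Over all genes tested it was -0.003, -0.004 and -0.008. The EB4 median includes the linker histone genes that were high in WT EB4 replicate 1.

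**Figure D4:**
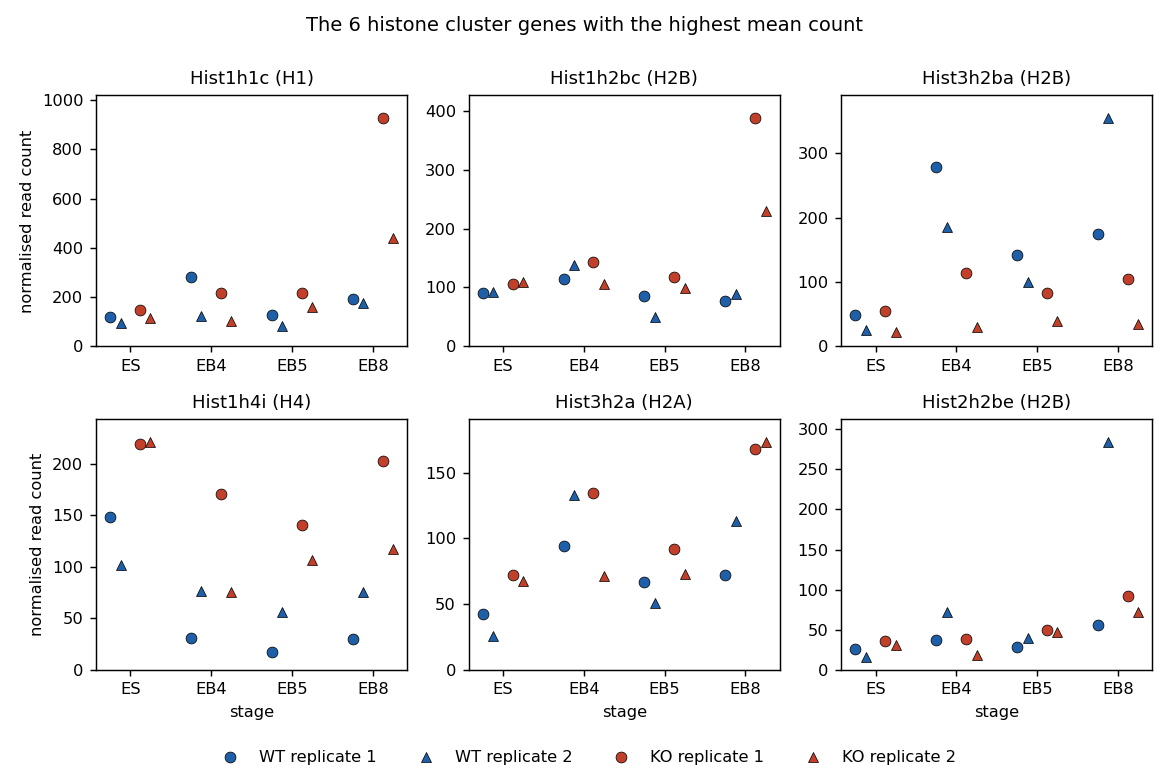
Normalised read counts of the 6 members with the highest mean, by stage. Each point is a library, coloured by genotype and shaped by replicate number. Hist1h1c and Hist1h2bc are at 440 to 926 and 230 to 387 in the KO EB8 libraries, above all others, and Hist3h2ba is lower in KO than in WT embryoid bodies.

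The step from ES to EB4 asks what changes when cells leave the ES state. In WT, 2 members were higher at EB4 and none was lower, against 8.98% and 7.57% of all genes. Both belong to the Hist3 cluster. Hist3h2ba rose by a log2 change of 2.64 ± 0.73 (SE, n = 2 each, limma adjusted p 0.0281), from 48.2 and 26.3 to 278 and 186 counts. That call was lost without WT ES replicate 2 (0.129), WT EB4 replicate 1 (0.125) or WT EB4 replicate 2 (0.0741).

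Hist3h2a (ENSMUSG00000078851, chr11:58768187-58770176) encodes a core H2A. It had 42.8 and 25.5 counts in WT at ES, 94.3 and 133 at EB4, 66.8 and 50.5 at EB5 and 72.5 and 113 at EB8. In KO it had 72.2 and 67.2 at ES, 134 and 71.5 at EB4, 92.0 and 72.7 at EB5 and 168 and 174 at EB8. Both WT ES libraries lay below all other values. The rise in WT was 1.73 ± 0.42 (SE, limma adjusted p 0.0160), and its call was lost without WT ES replicate 2 (0.0838) or WT EB4 replicate 2 (0.1003). Without the 3 WT libraries set apart above, neither Hist3h2a (0.0508) nor Hist3h2ba (0.159) passed.

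These genes lie on chromosome 11, whose median level over genes ran from 0.18 to 0.27 (log2) in the 4 libraries of KO replicate 1 and from -0.13 to 0.03 elsewhere. Hist3h2ba was higher in KO replicate 1 than in replicate 2 at every stage, by 1.09 to 1.87 on the log2 scale, while Hist3h2a differed by -0.05 to 0.90, and the part of the chromosome level was not tested. The third gene of the cluster, the pseudogene Hist3h2bb-ps, had 0 to 3.3 counts. In KO no member passed in limma between ES and EB4, against 2.51% of genes higher and 0.992% lower. There was also none at an unadjusted p under 0.05 and none in edgeR or DESeq2. Hist3h2ba changed there by 0.73 ± 0.73 and Hist3h2a by 0.49 ± 0.42.

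From EB4 to EB8, over the retinoic acid treatment, Hist1h1c and Hist1h2bc rose in KO. They were 2 of 14 members, with none lower, against 9.86% of all genes higher and 8.67% lower. Hist1h1c rose by 2.07 ± 0.49 (SE, n = 2 each, limma adjusted p 0.0127), and lost the call without KO EB4 replicate 2 (0.113) or KO EB8 replicate 1 (0.111). Hist1h2bc rose by 1.27 ± 0.36 (0.0283), and lost it without KO EB4 replicate 1 (0.0579), KO EB4 replicate 2 (0.165) or KO EB8 replicate 1 (0.206). The median log2 change of the 14 members was 1.26 in KO, against 0.008 over all genes tested. All but Hist1h4d were above 0, and 3 had an unadjusted p under 0.05. KO EB4 replicate 2 was lower than replicate 1 in all 14 tested members, and KO EB8 replicate 1 was higher than replicate 2 in 13 of 14. In the 51 untested members KO EB8 replicate 1 was higher than replicate 2 in 37.

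In WT no member passed in limma between EB4 and EB8, against 15% of all genes higher and 12.2% lower. There was none at an unadjusted p under 0.05 and none in edgeR or DESeq2. Hist1h1c changed by -0.02 ± 0.49 and Hist1h2bc by -0.61 ± 0.36. Hist2h2be (ENSMUSG00000068854, chr3:96025044-96027661), an H2B gene without the searched stem-loop and with a long annotated end, had 37.3 and 71.8 counts in WT EB4 and 55.7 and 285 in WT EB8. Its other WT values were 25.5 and 15.9 at ES and 28.2 and 39.5 at EB5, and its KO values were 36.5 and 30.7 at ES, 38.6 and 17.9 at EB4, 49.3 and 47.5 at EB5 and 91.8 and 72.4 at EB8. Without WT EB8 replicate 1, Hist2h2be was higher (limma log2 change 2.44, adjusted p 0.0168) and Hist1h1b lower (-4.48, 0.0208) in WT.

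Whether that change differs between the genotypes was tested by the interaction term, KO minus WT of the change from EB4 to EB8. No member passed, against 1.04% of all genes higher and 1.71% lower, and 2 members had an unadjusted p under 0.05. These were Hist1h2bc, at 1.88 ± 0.51 (limma adjusted p 0.0739), and Hist1h1c, at 2.09 ± 0.69 (0.138). DESeq2, which called more of all genes than limma at EB4 and EB5, called both (0.00707 and 0.0319) and edgeR neither. In limma with a replicate block Hist1h1c passed (0.0278). The block takes replicate numbers as pairing libraries across all groups, which they do not do.

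**Figure D5:**
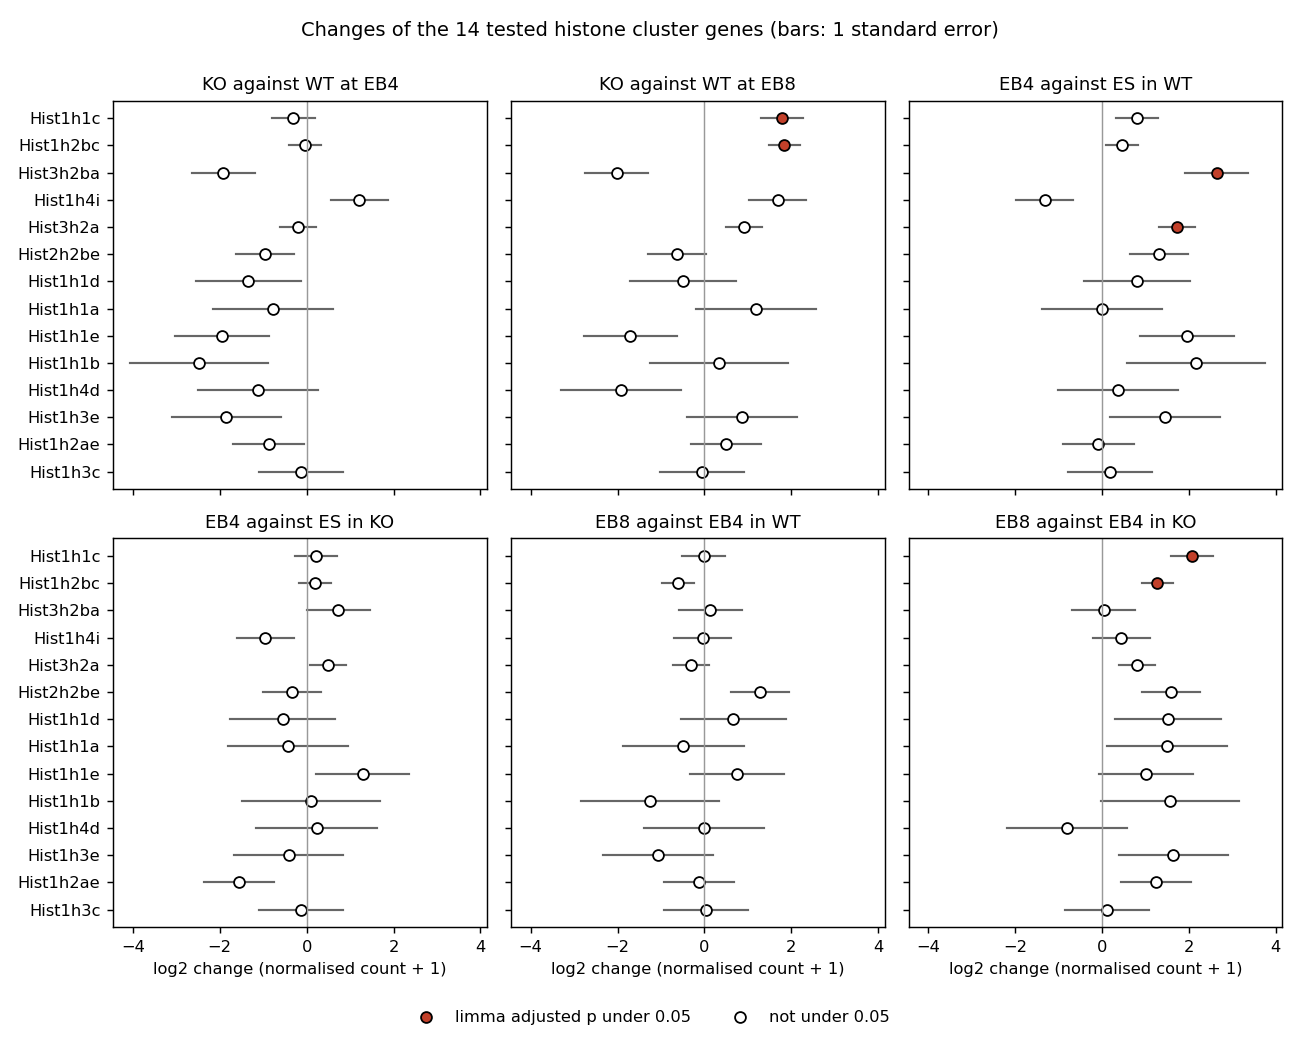
Log2 changes of the 14 tested members in 6 of the comparisons, on the log2(normalised count + 1) scale, with bars of 1 standard error. Filled points passed the threshold of 0.05 (limma adjusted p). Filled points are Hist1h1c and Hist1h2bc in KO against WT at EB8 and in EB8 against EB4 in KO, and Hist3h2ba and Hist3h2a in EB4 against ES in WT.

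The tested genes most like the 3 members of highest level per kb were sought by the Pearson correlation of log2(normalised count + 1) over the 16 libraries, a description over points that share libraries and depth. Hist1h2bc was most like Hist1h1c (r = 0.85), then Shisa5 (0.79) and Myo1d (0.78). Hist1h4i was most like Mtf1 (0.92), E030030I06Rik (0.92) and Tmem104 (0.91), and Hist3h2ba was most like Pafah1b3 (0.93), Thsd7a (0.93) and Fip1l1 (0.92).

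A fixed list of replication-independent histone genes was set beside these genes, since most such mRNAs carry poly-A tails. Of 16 such genes 11 were tested, and the shares of all genes called are those given above for each comparison. In KO against WT, H2afy2, a macroH2A, was lower at EB4 (-2.36, limma adjusted p 0.00396), EB5 (-1.79, 0.00849) and EB8 (-1.69, 0.000758). H2afy, the other macroH2A, was higher at EB4 (0.68, 0.0204), and H2afz, a variant found at promoters, was lower at EB8 (-0.83, 0.0335). At EB8 these were 2 of 11 lower, against 12.5% of all genes. None passed at ES, where 3 had an unadjusted p under 0.05. From ES to EB4 in WT, H1f0 (1.63, 0.0156) and H2afy2 (1.09, 0.0143) were higher, against 8.98% of all genes. H1f0 is a linker histone of cells that stop dividing. In KO none passed in that step, with 3 at an unadjusted p under 0.05. From EB4 to EB8, H2afy2 (1.88, 0.000231) and H2afy (1.62, 1.03e-05) rose in WT, against 15% of all genes. In KO 3 rose and 2 fell, against 9.86% of all genes higher and 8.67% lower, with the largest changes in H2afy2 (2.54, 7.80e-05), H1f0 (1.22, 0.0480) and H2afz (-0.97, 0.0202). H2afy was the 1 gene of the list whose change differed between genotypes (-0.89, 0.035).

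Genes of S phase were fixed as a further list. Of 15 tested, 6 were lower and none higher at EB8 than at EB4 in KO, against 8.67% of all genes lower and 9.86% higher, with Mcm3 (-0.84, limma adjusted p 0.00402), Pcna (-0.73, 0.0434) and Tyms (-0.73, 0.0237) the largest. Mcm3 is part of the replicative helicase, Pcna the polymerase clamp and Tyms makes thymidylate. In WT 3 were lower, against 12.2% of all genes, Mcm3 (-0.66, 0.00800), Tyms (-0.60, 0.0390) and Mcm7 (-0.48, 0.0366). At EB8 Rrm1, a ribonucleotide reductase subunit, was lower in KO than in WT (-1.01, 0.00389), and from ES to EB4 in WT Rrm2 (-1.05, 0.0290) and Cdc6 (-0.98, 0.0182) fell. None passed in limma in the other comparisons, where 0 to 2 had an unadjusted p under 0.05. The part of S phase in the histone values was not tested.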

How the data were processed

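Total RNA was selected on poly-T beads, made into TruSeq libraries and sequenced as single-end 54-base reads. Per the labels' processing notes, the authors used CASAVA (1.7, 1.8), TopHat2 2.0.10 on mm9, HTSeq 0.5.4p3 and DESeq2 1.0.19. Neither the annotation release nor the strand setting is given in the sources used here. The deposited signal is the read count of a gene divided by a size factor. In all libraries 100% of values were whole multiples of 1 step (0.715 to 1.28, tolerance 0.01 reads), so reads were recovered for 22442118 to 40711826 per library.

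limma 3.58.1 was fitted on log2(signal + 1) to all 16 libraries, with a mean per group and eBayes with trend, for the 16124 genes with a mean of at least 10. p-values were Benjamini-Hochberg adjusted over these, with a threshold of 0.05. The steps were tested on simulated data. Alternatives were edgeR 4.0.16 and DESeq2 1.42.0 on recovered reads, other pseudocounts (0.1, 5), other filters (none, a mean of 50), upper-quartile and quantile scaling, the compared groups alone, a replicate block, and each library left out. Replicates come from separate lines per the study's methods.

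Positions and exons are from the NCBI37 annotation (GENCODE M1) and genome, and promoters from RefSeq. Another 5 annotated members are not analysed here. Members named with values in every library are the 10 of highest level per kb and those that passed. Members and lists were chosen with earlier results of these data known.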

Additional observations from a re-analysis of the deposited data

Results flagged for a closer look

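The change of Hist1h2bc over the retinoic acid treatment had opposite signs in the 2 genotypes. From EB4 to EB8 both libraries of WT were lower (log2 change -0.61) and both of KO were higher (1.27), a difference of 1.88. The WT change did not pass (limma adjusted p 0.237), and the KO rise passed (0.0283) but lost its call in 3 of the 4 fits that left out 1 library. The interaction term for this difference had a limma adjusted p of 0.0739, so it did not pass the threshold of 0.05.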

How the results depend on the processing

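With 2 libraries a group, most calls rested on single libraries. The count of members called ranged from 1 to 2 at EB8 in KO against WT when each library was left out in turn, where Hist3h2ba (lower) took the place of Hist1h1c without KO EB8 replicate 1, and from 0 to 2 for EB4 against ES in WT, for EB8 against EB4 in KO and for EB8 against EB4 in WT. Fitting the compared groups alone gave 0 for EB4 against ES in WT and 0 for EB8 against EB4 in KO. Quantile scaling gave 1 for EB8 against EB4 in KO. With no filter, 1 was called for EB8 against EB4 in WT (Hist2h2ab, at 0 to 4.2 counts). DESeq2 gave 4 at EB8 in KO against WT and 2 in the interaction. It also called more of all genes than limma in KO against WT, 2077 against 986 at EB4 and 1719 against 700 at EB5. The replicate block gave 3 at EB8 and 1 (Hist1h1c) in the interaction. With the block, 1363 of all genes were called at EB4 and 983 at EB5 in KO against WT. Exchanging the KO numbers in the block, chosen after seeing the data, gave 4 at EB8 and 1 (Hist1h4i, higher) at EB5. Leaving out the 3 WT libraries, also chosen after seeing the data, gave 3 at EB8 (Hist1h2bc, Hist1h1a and Hist1h1b higher) and 0 for EB4 against ES in WT. The cause was not tested. Of 169 values of these counts and of the summed reads under alternatives, 7 had more calls, 12 fewer, and 150 stayed within 1.5 times the count or moved by less than 1 SD. These 150 say little about the named calls, since 6 of the 9 comparisons had no call to lose in the main fit. No called change turned its sign, but the summed KO over WT ratio at EB8 turned from 1.35 to 0.96 without Hist1h1c and without KO EB8 replicate 1. Under upper-quartile or quantile scaling 25 of 252 member changes turned their sign, 0 of them called, with sizes up to 0.50 on the log2 scale (for example Hist1h1b in KO against WT at EB8, 0.33 to -0.27 with quantile scaling).

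Replicate numbers do not pair libraries in every group: the correlation over genes of the difference between replicates was 0.52 to 0.605 between WT embryoid body stages, 0.233 to 0.422 between KO stages, and -0.209 to -0.033 between these sets. For WT ES it was -0.179 to -0.048 with the WT embryoid body stages and 0.056 to 0.368 with the KO stages. Upper-quartile scaling moved the median of all genes at EB8 in KO against WT from -0.03 to 0.11 and for EB8 against EB4 in WT from -0.01 to -0.16. Members with means under 10 are too shallow to compare.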

Other observations

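Genes that transcribe, process and degrade histone mRNA were a further list. Of 25 tested, Cdk2 alone passed in KO against WT, lower at EB8 (log2 change -0.59, limma adjusted p 0.0267), against 10.4% of all genes higher and 12.5% lower there. The 25 changes at EB8 ran from -0.86 to 0.77, and 3 had an unadjusted p under 0.05. At ES, EB4 and EB5, 0 passed, and 5, 1 and 0 had an unadjusted p under 0.05. Ccne1, the cyclin E1 that activates Cdk2 at the start of S phase, fell from ES to EB4 in WT (-1.28, 0.0101) and KO (-1.24, 0.0334) and again from EB4 to EB8 in WT (-1.26, 0.00527) and KO (-1.31, 0.00752). In the first step Srrt also fell in WT (-0.68, 0.0300), and in KO Cdk2 fell (-0.78, 0.0316) and Zcchc11, a uridylyltransferase, rose (0.88, 0.0339). From EB4 to EB8, 1 was higher and 3 were lower in WT, against 15% and 12.2% of all genes, with Zfp473 (-1.10, 0.00927) and Zcchc11 (0.57, 0.0490) next to Ccne1, and 5 were lower in KO, against 8.67% of all genes, with Srrt (-0.71, 0.0229) and Cdk2 (-0.70, 0.0152). None passed in the interaction, with 3 at an unadjusted p under 0.05.

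Among the 14 histone chaperones tested, Hat1, which acetylates newly made H4, was the 1 gene that differed between genotypes. It was higher in KO at EB4 (0.64, limma adjusted p 0.0159), EB5 (0.73, 0.0131) and EB8 (1.39, 4.04e-05), against 2.75%, 2.17% and 10.4% of all genes, and its change from EB4 to EB8 differed between genotypes (0.75, 0.0438). In WT it fell from ES to EB4 (-0.71, 0.00407) and from EB4 to EB8 (-0.90, 0.000260). Daxx fell from ES to EB4 in WT (-0.71, 0.0155) and KO (-0.73, 0.0380). From EB4 to EB8 Asf1b rose in WT (0.87, 0.0242), and Chaf1b (-0.96, 0.00645) and Nasp (-0.82, 0.0197) fell in KO. At ES in KO against WT 0 passed, with 1 at an unadjusted p under 0.05.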
